A study of Mus musculus with 150 samples.

Results

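Among single mouse lung cells captured on 2 microfluidic chips, 32 held at least as much RNA of Sftpc as of Scgb1a1, and 95 held more Scgb1a1 than Sftpc. The cells were chosen by these measured values. Within each of the 2 deposited single-cell tables, wells labelled as controls, debris or valve were set aside, and a kept cell had at least 1000 genes, spike-ins not counted, at a TPM of 1 or more (TPM, a share of all transcripts corrected for gene length). A kept cell was called Sftpc-dominant where its Sftpc TPM was equal to or above its Scgb1a1 TPM, and Scgb1a1-dominant otherwise. The rule kept 127 cells of the 150 samples of the series. On the wild-type chip 17 of 66 kept cells were Sftpc-dominant, a share of 25.8% (exact binomial 95% interval 15.8 to 38, counting error only). On the chip labelled p53-/-, 15 of 61 were, a share of 24.6% (14.5 to 37.3).

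The cells were labelled as mouse lung of genotype wild type or p53-/-, and a single chip was run per genotype, without any animal being named. Cells are therefore not replicates, genotype and chip cannot be told apart, and no test was run: differences are described by size and by whether both chips showed them. The protocol lists Scgb1a1-CreERTM; Rosa26-mT/mG and Rosa26R-Confetti mice, which mark Scgb1a1-expressing cells once tamoxifen activates the recombinase, crossed to p53flox, p53-/- or Super p53 animals, with tamoxifen at 250 mg/kg for sequencing. The labels leave unclear which of these alleles the captured cells carried, which cells were lineage marked, and whether any had been cultured. In addition, 3 p53+/+ and 3 p53flox/flox bulk libraries were made from sorted GFP+ EpCAM+ CD31/34/45- 7AAD- cells of Scgb1a1-CreERTM; Rosa26-mT/mG mice aged 8 to 12 weeks; the protocol gives 70 days after tamoxifen, while the titles name day 30. Their Cre is driven from the Scgb1a1 locus, so the sorted cells descend from cells that once expressed that gene.

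Sftpc encodes surfactant protein C, a hydrophobic peptide made by alveolar type 2 cells, which pack surfactant lipid and protein into lamellar bodies and act as progenitors of the alveolar epithelium. Scgb1a1 encodes secretoglobin 1A1, the main secreted protein of club cells, which line the bronchioles, secrete host-defence proteins and carry much of the cytochrome P450 activity of the mouse lung. Cells holding both proteins have been described at the junction of bronchiole and alveolus.

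In GENCODE M21 on GRCm38, Sftpc lies at chr14:70520949-70524081 and Scgb1a1 at chr19:9083636-9087958, both on the minus strand. Lamp3, a membrane glycoprotein of lamellar bodies, lies at chr16:19653378-19706375 on the minus strand, and Cyp2f2, a P450 that oxidises naphthalene in club cells, at chr7:27119909-27133660 on the plus strand. The 250 bases before the RefSeq start of these 2 further markers are printed because they stand for the opposite sides of the comparison. The windows are chr16:19706366-19706615 (minus strand) and chr7:27119705-27119954 (plus strand) of GRCm38.p6, written 5′ to 3′. Capitals mark the motifs found.
Lamp3: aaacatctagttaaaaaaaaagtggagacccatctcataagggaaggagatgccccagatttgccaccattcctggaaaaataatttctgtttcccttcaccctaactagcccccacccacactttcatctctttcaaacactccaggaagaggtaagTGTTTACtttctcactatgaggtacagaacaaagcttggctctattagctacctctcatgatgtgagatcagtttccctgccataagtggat
Cyp2f2: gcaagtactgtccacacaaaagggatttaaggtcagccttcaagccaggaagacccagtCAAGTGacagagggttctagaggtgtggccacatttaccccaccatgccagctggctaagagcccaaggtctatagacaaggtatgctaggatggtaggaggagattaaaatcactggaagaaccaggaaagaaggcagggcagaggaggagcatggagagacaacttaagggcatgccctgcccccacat
The search covered both strands for the NKX2 core CACTTG or CAAGTG, the C/EBP site TTGCNNAA, the forkhead site TGTTTAC or TGTTTGC, the grainyhead site AACCNGTT and the HNF1 site. The Lamp3 window held a forkhead match whose first base lay at -92 from the start, and the Cyp2f2 window held an NKX2 core match at -191. A match is a description of letters, not of binding.

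The 2 transcripts that defined the groups took a large part of each cell's total. On the wild-type chip Sftpc ran from 5860 through a median of 243462 to 374068 TPM in Sftpc-dominant cells, and from 0.17 through 173 to 119240 TPM in Scgb1a1-dominant cells. On the chip labelled p53-/- the values were 114619, 278440 and 382166 TPM against 0.58, 564 and 134074 TPM. The Sftpc ranges of the 2 groups overlapped on both chips, and Sftpc was at 100 TPM or more in 27 of 49 wild-type and 25 of 46 labelled p53-/- Scgb1a1-dominant cells. Scgb1a1 had medians of 380677 and 382483 TPM in Scgb1a1-dominant cells, against 610 TPM (lowest 9.18, highest 160746) and 35294 TPM (lowest 16.2, highest 150279) in Sftpc-dominant cells of the wild-type and labelled p53-/- chips. It reached 100 TPM in 14 of 17 and 14 of 15 of the Sftpc-dominant cells, so the club transcript was found in most wells of that group. Whether the low values of either transcript came from the captured cell itself was not tested.

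The cells next to the boundary were rich in both transcripts. On the wild-type chip the nearest cell on the Scgb1a1 side had 106404 TPM of Sftpc and 292933 TPM of Scgb1a1, and the nearest on the other side had 224317 and 160746 TPM. On the chip labelled p53-/- these cells had 112865 and 241812 TPM, and 114619 and 105017 TPM. At the minimum of 1000 genes, the closest cell left out had 795 genes and the closest kept had 1201 on the wild-type chip, against 864 and 1819 on the other.

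**Figure D1:**
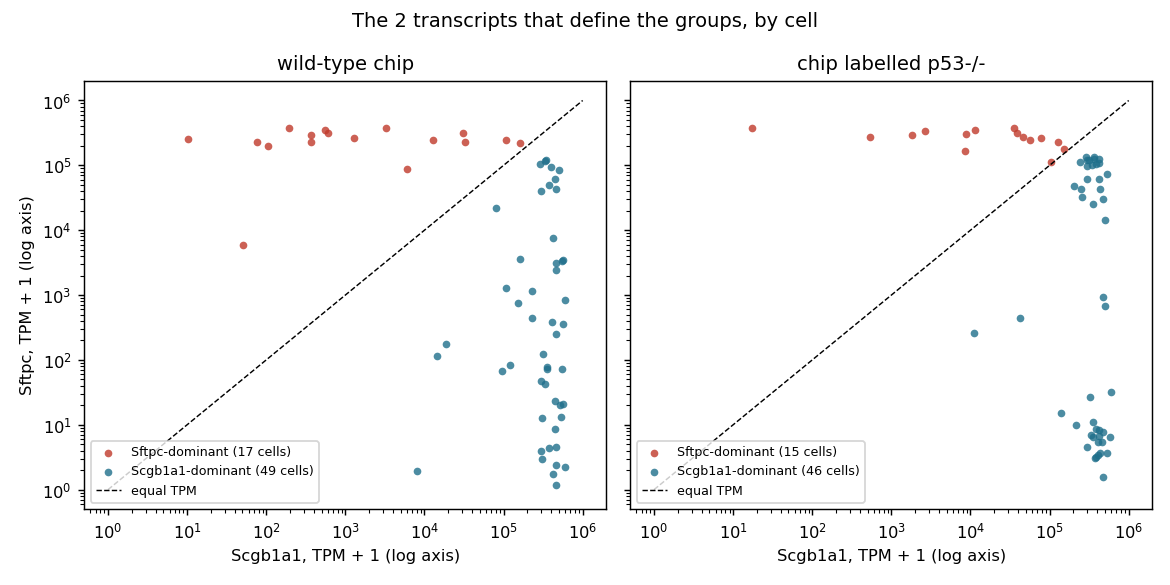
Sftpc (vertical axis, TPM + 1, log scale) against Scgb1a1 (horizontal axis, TPM + 1, log scale) in each kept cell, 1 point per cell, 1 panel per chip; the dashed line marks equal TPM and defines the groups. The 32 Sftpc-dominant cells spread along the top over a wide range of Scgb1a1, and the 95 Scgb1a1-dominant cells spread down the right side over a wide range of Sftpc.

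Sequencing depth is unknown, since TPM values hold no counts. Sftpc-dominant cells had fewer detected genes (median 2633 against 3154 on the wild-type chip, 3196 against 3824 on the other) and a larger part of their TPM in spike-in RNA (median 22.1% against 11%, and 15.4% against 5.68%). The part of these gaps in the differences below was not tested; counts without the cells over 30% spike-in stand in the closing section. The targeted gene went against the label: Trp53 was at 1 TPM or more in 0 of 17 wild-type Sftpc-dominant cells, which allows a share of up to 17.6%, and in 4 of 49 Scgb1a1-dominant cells. On the chip labelled p53-/- the counts were 5 of 15 and 11 of 46. Trp53 differed by -0.57 on the wild-type chip and 0.90 on the other (Sftpc-dominant minus Scgb1a1-dominant, mean log2(TPM + 1)), below the size used here on both. Whether the detected RNA came from a part outside a deletion was not tested. In the bulk libraries Trp53 was at 16.6, 22.2 and 21.7 FPKM (fragments corrected for gene length and library size) in the wild-type replicates 1, 5 and 6 and at 8.63, 9.98 and 7.56 FPKM in the p53flox/flox replicates 7, 8 and 10, with no overlap.

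Both groups were described cell by cell by other markers of alveolar type 2 and club cells. These lists were chosen with earlier results of these data known. Which list mean is higher also depends on the genes that each list holds. The alveolar type 2 markers measured on both chips numbered 36 and the club markers 71, with Sftpc and Scgb1a1 left out. The mean log2(TPM + 1) over the alveolar list was higher than that over the club list in all 32 Sftpc-dominant cells. Among the Scgb1a1-dominant cells the club mean was the higher in all but 3 of 49 on the wild-type chip and 8 of 46 on the chip labelled p53-/-. By these lists the Sftpc-dominant group may thus be called alveolar type 2-like, and the Scgb1a1-dominant group club-like with 11 exceptions. Near ties lay among the exceptions: a wild-type one had an alveolar mean of 6.20 against a club mean of 6.19. A labelled p53-/- exception had 4.75 against 4.45. Some other Scgb1a1-dominant cells had a higher club mean by little and are not shown to be club cells. A labelled p53-/- cell rich in leukocyte markers, described below, had a club mean of 1.73 against an alveolar mean of 1.70. Wild-type cells with 42.6% and 79.7% spike-in had 2.99 against 2.94 and 1.62 against 1.44. Limits hold on the Sftpc side too. Spike-in passed 30% of TPM in 7 of 17 wild-type Sftpc-dominant cells, against 6 of 49 Scgb1a1-dominant cells. Of these Sftpc-dominant cells, the one with 69.6% had an alveolar mean of 1.42, a club mean of 0.39 and 0.06 TPM of Lamp3. A labelled p53-/- Sftpc-dominant cell was rich in ciliated markers, which summed to 6485 TPM. Each of the 11 Scgb1a1-dominant exceptions held at least 72698 TPM of Sftpc.

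Those exceptions lay among the cells rich in both transcripts. The higher of the 2 transcripts was under 10 times the lower in 9 of 49 (18.4%, interval 8.76 to 32) wild-type and 17 of 46 (37.0%, 23.2 to 52.5) labelled p53-/- Scgb1a1-dominant cells. The same held in 3 of 17 (17.6%, 3.80 to 43.4) and 7 of 15 (46.7%, 21.3 to 73.4) Sftpc-dominant cells. In both groups the share was larger on the chip labelled p53-/-. This difference between the chips was not tested, and chip and genotype cannot be told apart. Of the 26 Scgb1a1-dominant cells in this band 11 had the higher alveolar mean, against 0 of the 40 wild-type and 0 of the 29 labelled p53-/- cells outside it. In the 17 labelled p53-/- band cells Cyp2f2 stayed at 5864 TPM or more, while Slc34a2, the phosphate carrier of type 2 cells, ran from 57.2 through 210 to 609 TPM and Lyz2, lysozyme, from 0.77 through 3942 to 14274 TPM. In the 9 wild-type band cells Cyp2f2 was at 4168 TPM or more, while Slc34a2 ran from 0.39 through 73.1 to 626 TPM and Lyz2 from 1.08 through 3526 to 13421 TPM. Outside the band the medians of Slc34a2 and Lyz2 were 0.885 and 2.465 TPM on the wild-type chip and 0.12 and 0.72 TPM on the other. Band cells on the chip labelled p53-/- had a median of 4040 detected genes against 3580 for the other Scgb1a1-dominant cells, and on the wild-type chip 3476 against 2932.5. Per the protocol, wells with doublets were removed by inspection; no doublet caller was run here, and whether both transcripts came from 1 cell was not tested.

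**Figure D2:**
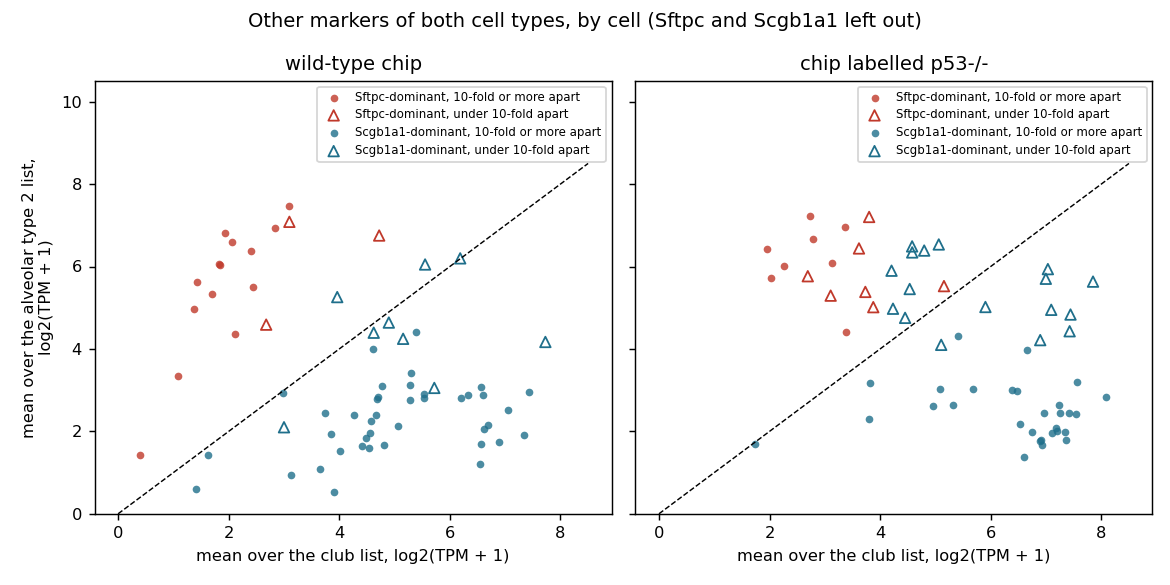
Mean log2(TPM + 1) over the 36 alveolar type 2 markers (vertical axis) against that over the 71 club markers (horizontal axis) for each kept cell, 1 panel per chip; open triangles are cells whose Sftpc and Scgb1a1 were under 10-fold apart, filled points the others, and the dashed line marks equal means. All 32 Sftpc-dominant cells lie above the line, and the 11 Scgb1a1-dominant cells above it are all open triangles.

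A gene was called different by size where mean log2(TPM + 1) differed by at least 2 between the groups and the higher group had 1 TPM or more in at least 30% of its cells. On the wild-type chip 71 of 9712 measured genes were higher in Sftpc-dominant cells (0.731%) and 224 in Scgb1a1-dominant cells (2.31%). On the chip labelled p53-/- these were 79 of 10384 (0.761%) and 270 (2.6%). Of 8778 genes measured on both chips, 42 were higher in Sftpc-dominant cells on both (0.478%) and 106 in Scgb1a1-dominant cells on both (1.21%). The 42 made up 59.2% of the wild-type and 53.2% of the other list, and the 106 made up 47.3% and 39.3%. No gene was called in opposite directions. The median difference of all measured genes was -0.07 and -0.08. Since the groups were cut on 2 genes of the same cells, all these values are descriptions. The groups overlapped in every gene measured on both chips, the defining pair included. Leaving that pair aside, cells with 10-fold dominance numbered 14 against 40 on the wild-type chip and 8 against 29 on the other. Between them 2 and 4 of the 8778 genes did not overlap, none of them on both chips. These were Aldh1a1 and Cyp2f2 on the wild-type chip, and Lamp3, Slc34a2, Sftpb and the ribosomal gene Rps2 on the other. Some gaps were narrow. Aldh1a1 reached 0.34 TPM in Sftpc-dominant cells against a lowest 1.99 in the others, and Rps2 64.55 against 72.09. The lowest Sftpb was 489 TPM against a highest 463 in the others.

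**Figure D3:**
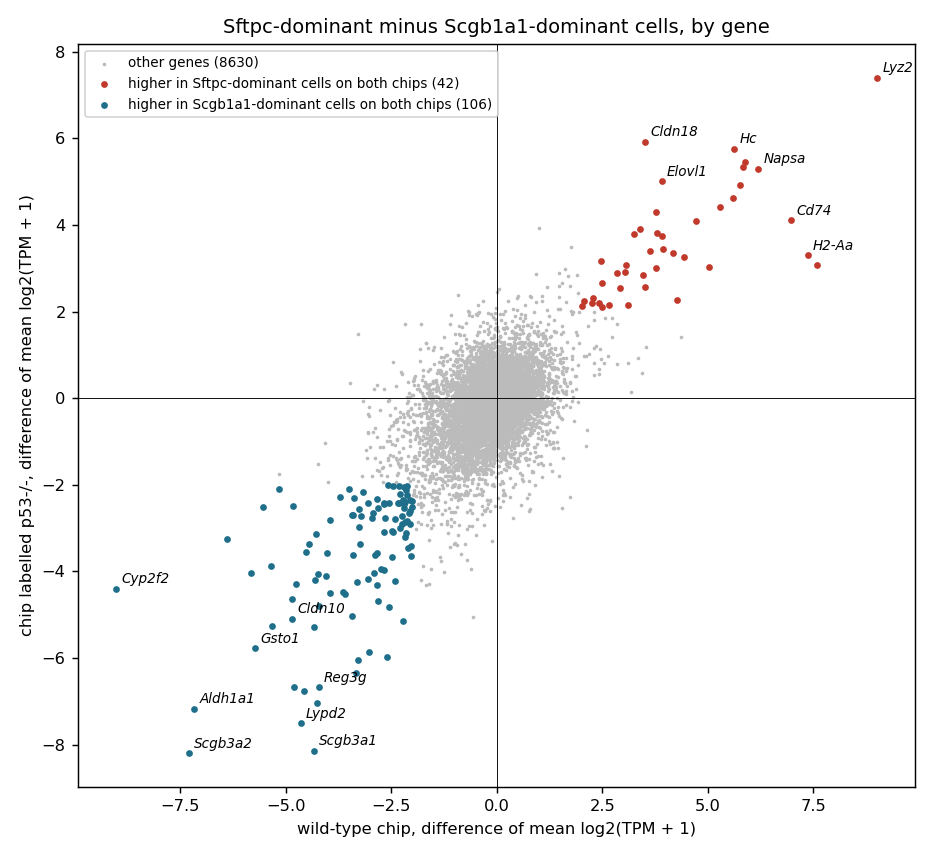
Difference of mean log2(TPM + 1), Sftpc-dominant minus Scgb1a1-dominant cells, for each of 8778 genes (1 point per gene) on the wild-type chip (horizontal axis) and the chip labelled p53-/- (vertical axis), without Sftpc and Scgb1a1. The 42 genes in red were higher by at least 2 in Sftpc-dominant cells on both chips and the 106 in blue in Scgb1a1-dominant cells; no coloured gene lies in the quadrants of opposite sign.

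Surfactant and lamellar body genes were higher in Sftpc-dominant cells. Of 12 such genes measured, 6 were called on both chips in that direction and 0 in the other, with median differences of 2.71 and 2.85. Lamp3 ran from 0.06 through 342 to 807 TPM in wild-type Sftpc-dominant cells and from 0 through 0 to 370 TPM in Scgb1a1-dominant cells. On the chip labelled p53-/- it ran from 0.2 through 311 to 1186 TPM and from 0 through 0.075 to 376 TPM. It was detected in 16 of 17 and 14 of 15 Sftpc-dominant cells and in 11 of 49 and 18 of 46 of the others, and differed by 5.84 and 5.35. Means of log2(TPM + 1) with SD over cells were 7.26 ± 2.87 against 1.42 ± 2.64 and 7.59 ± 2.49 against 2.24 ± 3.08. Slc34a2 ranged from 3.3 through 433 to 2048 TPM against 0, 1.61 and 626 TPM on the wild-type chip, and from 120 through 682 to 1189 TPM against 0, 16.7 and 609 TPM on the other. It was present in every Sftpc-dominant cell and differed by 5.89 and 5.45, though the ranges overlapped. Napsa, the aspartic protease that processes surfactant protein B, differed by 6.20 and 5.30, and Lpcat1, which makes the dipalmitoyl lipid of surfactant, by 4.72 and 4.09.

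The surfactant proteins themselves were less exclusive. Sftpb, the other hydrophobic surfactant protein, had medians of 700 and 600 TPM in Sftpc-dominant cells and still 115 and 174 TPM in Scgb1a1-dominant cells, where it was detected in 45 of 49 and 37 of 46. Sftpa1, a collectin, had medians of 16593 and 13508 TPM against 1232 and 2266 TPM. Both were thus readily found on the club side, with differences of 3.63 and 3.39 for Sftpb and 4.17 and 3.35 for Sftpa1. Sftpd, the collectin detected in 91.8% and 97.8% of Scgb1a1-dominant cells, differed by 1.77 and 1.94, and Abca3, the lamellar body lipid transporter, by 1.06 and 2.35; neither was called on both chips, and both were picked after their values were seen.

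Of 24 further type 2 markers, 12 were higher in Sftpc-dominant cells on both chips and 1 lower, with medians of 3.35 and 2.03. Lyz2 had the largest difference of any gene of this side apart from Sftpc. It ran from 116 through 15327 to 65812 TPM against 0, 3.92 and 13421 TPM on the wild-type chip, and from 2861 through 13457 to 52550 TPM against 0, 363 and 18282 TPM on the other. The 18282 TPM lay in the cell rich in leukocyte markers described below, against at most 14274 TPM in the other Scgb1a1-dominant cells. Every Sftpc-dominant cell held Lyz2, and 17 of 49 and 16 of 46 of the Scgb1a1-dominant cells did not reach 1 TPM. The differences of Lyz2 were 9.02 and 7.40. Hc, complement component 5, differed by 5.63 and 5.76, S100g, a calcium-binding protein, by 5.77 and 4.92, Chil1, a chitinase-like secreted protein, by 3.81 on both, and Egfl6, a secreted matrix protein, by 3.77 and 4.29. Etv5, an ETS factor downstream of FGF signalling, had medians of 24.9 and 43.2 TPM against 0 and 0 TPM and differed by 3.91 and 3.75. Cxcl15, the lung chemokine lungkine, was common to both groups, with medians of 1275 and 1383 TPM against 130 and 198 TPM and differences of 3.26 and 3.78. Trf, transferrin, was the exception of the list: it was higher in Scgb1a1-dominant cells by 2.68 and 3.97, with medians of 154 and 335 TPM against 3.86 and 7.75 TPM.

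Of 30 genes of fatty acid, phospholipid and cholesterol synthesis, 3 were called higher in Sftpc-dominant cells on both chips and 0 lower, with medians of 0.56 and 0.63. Scd1, the stearoyl-CoA desaturase, was the clearest: 8.2, 516 and 3344 TPM against 0, 3.85 and 1817 TPM on the wild-type chip and 92.3, 847 and 4354 TPM against 0, 30.1 and 1188 TPM on the other, differing by 5.30 and 4.41. The others called were Elovl1, a fatty acid elongase (3.91 and 5.01), and Scd2, another desaturase (2.28 and 2.30). Fasn, fatty acid synthase, passed on the wild-type chip alone, at 2.30 against 1.82. In the list 23 of 30 members measured on the wild-type chip and 28 of 31 on the other were positive, against 4239 of 9319 and 4472 of 9959 genes of no list.

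MHC class II genes, which present extracellular antigen and are known in type 2 cells as well as in leukocytes, were higher in Sftpc-dominant cells, 4 of 7 on both chips, with medians of 5.02 and 1.72. Cd74, the invariant chain, ran from 203 through 1889 to 4064 TPM against 0, 3.04 and 3075 TPM on the wild-type chip and differed by 6.98. On the other chip it ran from 0 through 1046 to 5230 TPM against 0, 93.9 and 9536 TPM and differed by 4.11. H2-Aa was detected in 15 of 17 against 8 of 49 cells, and in 11 of 15 against 17 of 46, with differences of 7.37 and 3.31. H2-Ab1 differed by 7.59 and 3.08 and H2-Eb1 by 5.02 and 3.02. One Scgb1a1-dominant cell of the labelled p53-/- chip held the highest values there: 9536 TPM of Cd74, 6536 of H2-Aa and 7584 of H2-Ab1, against at most 1259, 915 and 705 TPM in the other 45. Its 18 leukocyte markers summed to 11559 TPM, led by Fcer1g, Tyrobp and Laptm5, and its Scgb1a1 was the lowest of its group, 11170 TPM. Without it and 3 cells rich in ciliated markers, Cd74 differed by 4.23, H2-Aa by 3.54 and H2-Ab1 by 3.66 on that chip.

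Other leukocyte RNA was scarce. The summed leukocyte markers had medians of 3.4 TPM (highest 347) and 4.8 TPM (highest 173) in Sftpc-dominant cells of the wild-type and labelled p53-/- chips, against 1.3 TPM (highest 187) and 7.4 TPM (next highest 669) in Scgb1a1-dominant cells. Cd52, Marco, Cd3e and Itgax were at 0 in every kept cell. Of 12 endothelial markers 7 were at 0 throughout, Pecam1 among them, and of 14 fibroblast and smooth muscle markers 6, Col1a1 among them. Summed ciliated markers reached 1000 TPM in 1 of 49 and 1 of 46 Scgb1a1-dominant cells and in 0 of 17 and 1 of 15 Sftpc-dominant cells. Alveolar type 1 markers were common in both groups: their sum reached 1000 TPM in 6 of 17 and 9 of 15 Sftpc-dominant and in 15 of 49 and 22 of 46 Scgb1a1-dominant cells. Ager, the receptor abundant in type 1 cells, had medians of 391.65 and 743 TPM against 212 and 55.1 TPM. Pdpn, podoplanin, was instead higher in Scgb1a1-dominant cells by 2.24 and 5.15. It was the single call of 11 type 1 markers and is not read as a result of that list.

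On the Scgb1a1-dominant side the genes of airway secretion stood out. Of 18 measured on both chips, 13 were higher in Scgb1a1-dominant cells and 1 lower, with median differences of -2.88 and -4.00 (Sftpc-dominant minus Scgb1a1-dominant). Scgb3a2, another secretoglobin, ran from 0 through 8059 to 35088 TPM in wild-type Scgb1a1-dominant cells and from 0 through 9.39 to 8493 TPM in Sftpc-dominant cells. On the other chip it ran from 539 through 21019 to 62228 TPM and from 0 through 2.6 to 7580 TPM, and it was higher on the Scgb1a1 side by 7.31 and 8.19. Scgb3a1, a further secretoglobin, was higher by 4.34 and 8.14, Bpifa1, an airway surface protein, by 4.58 and 6.75, Bpifb1, its larger relative, by 4.26 and 7.04, and Reg3g, an antibacterial lectin, by 4.23 and 6.67. Ltf, lactoferrin, Muc5b, the gel-forming mucin, and Pigr, which carries IgA to the lumen, were called too. Lcn2, the siderophore-binding lipocalin, was the gene of the list that was higher in Sftpc-dominant cells, by 2.41 and 2.19.

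These secreted proteins divided the Scgb1a1-dominant cells among themselves. Bpifa1 ran from 0 through 3.92 to 125067 TPM in the 49 wild-type cells and from 0.22 through 12882 to 97172 TPM in the 46 labelled p53-/- cells. Scgb3a1 had medians of 72.4 and 21344 TPM and highest values of 71974 and 54837 TPM. Within the group the transcripts were thus near 0 in some cells and very abundant in others, while Cyp2f2 was at 525 TPM or more in each of them. The summed airway secreted proteins had medians of 14058 and 92513 TPM on the wild-type and labelled p53-/- chips; chip and genotype cannot be told apart. Bpifa1 at 100 TPM or more was found in 8 of 27 wild-type cells with Sftpc at 100 TPM or more and in 10 of 22 with less Sftpc. On the other chip these counts were 13 of 25 and 17 of 21. Scgb3a1 had medians of 35.6 and 531 TPM in the same wild-type cells and of 782 and 32333 TPM in the labelled p53-/- cells. The median of Bpifa1 was 3.92 TPM in the wild-type cells with more Sftpc and 3.4 TPM in those with less, and 141 and 19619 TPM on the other chip, so on the wild-type chip the share and the median of Bpifa1 ran in opposite directions. This split was chosen after the values were seen.

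Genes of xenobiotic metabolism were also higher on the Scgb1a1 side. Of 36 oxidation and conjugation genes, 16 were higher in Scgb1a1-dominant cells on both chips and 0 lower, with medians of -2.81 and -2.45. Cyp2f2 was present in every one of these cells, from 525 through 12140 to 34849 TPM on the wild-type chip and from 932 through 11322 to 28256 TPM on the other. In Sftpc-dominant cells it ran from 0.09 through 6.96 to 6076 TPM and from 3.5 through 842 to 16625 TPM. The Scgb1a1-dominant excess was therefore 9.02 on the wild-type and 4.40 on the labelled p53-/- chip, with more Cyp2f2 in the Sftpc-dominant cells of the latter, whose median Scgb1a1 was also higher. Means of log2(TPM + 1) with SD over cells were 13.18 ± 1.41 against 4.16 ± 3.90 on the wild-type chip and 13.39 ± 0.83 against 8.99 ± 3.79 on the other. Aldh1a1, a retinaldehyde dehydrogenase, separated the groups more sharply in detection: 49 of 49 and 44 of 46 Scgb1a1-dominant against 2 of 17 and 4 of 15 Sftpc-dominant cells. Its medians were 501 and 673 TPM against 0 and 0.09 TPM, and it was higher by 7.18 and 7.17. Gsto1, an omega-class glutathione transferase, was higher by 5.74 and 5.77, Gpx2, a glutathione peroxidase, by 5.32 and 5.26, Gstm2, a mu-class transferase, by 5.83 and 4.03, and Cyp4b1, a lung P450, by 4.76 and 4.28. Fmo2, a flavin monooxygenase, was higher by 4.51 and 3.56. Cyp2a5, a coumarin hydroxylase, reached 1 TPM in 18 of 49 and 21 of 46 Scgb1a1-dominant and in 0 of 17 and 0 of 15 Sftpc-dominant cells, which allows shares of up to 17.6% and 20%. Reads shared with near-identical copies were divided by estimation in these tables, so values of single Cyp2a and Gstm genes are uncertain.

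**Figure D4:**
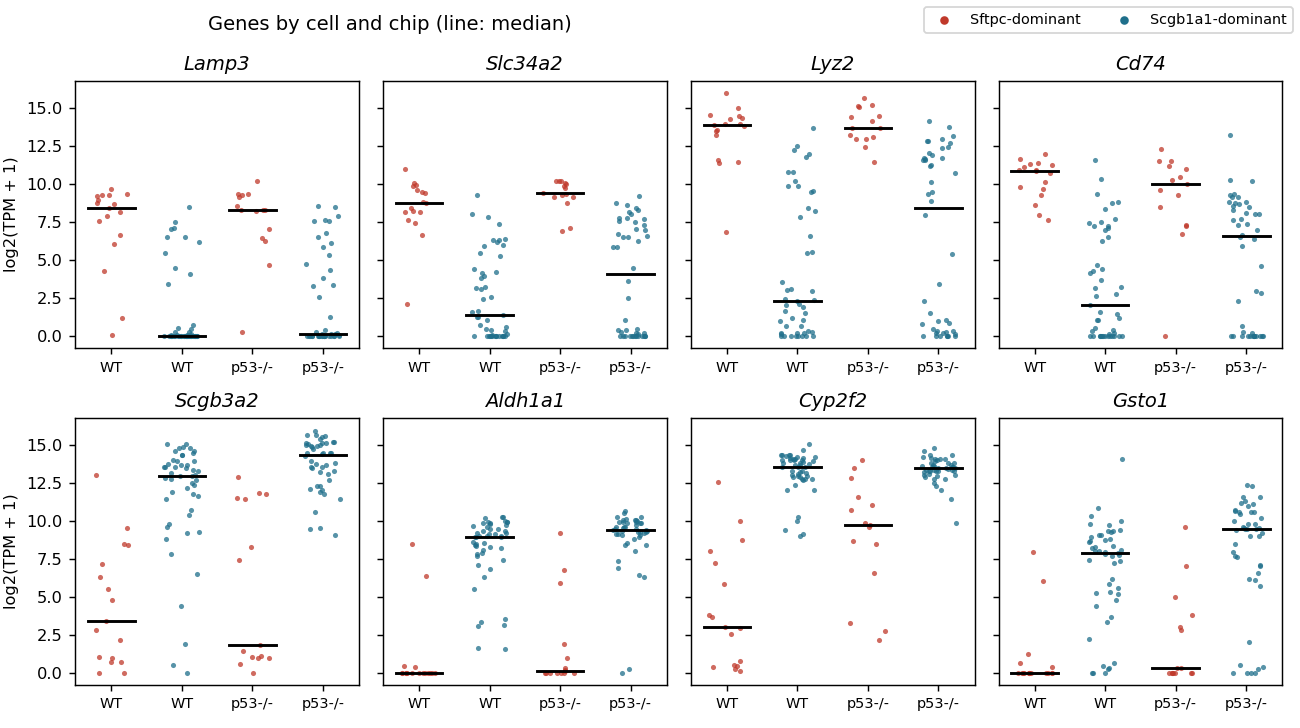
Log2(TPM + 1) of 8 genes in each kept cell (1 point per cell, red for Sftpc-dominant, blue for Scgb1a1-dominant), by group and by chip (WT, wild-type chip; p53-/-, chip labelled so); the black line is the median. Lamp3, Slc34a2, Lyz2 and Cd74 have the higher medians in Sftpc-dominant cells and Scgb3a2, Aldh1a1, Cyp2f2 and Gsto1 in Scgb1a1-dominant cells on both chips, with overlapping cells in every panel.

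Of 17 other club markers, 8 were higher in Scgb1a1-dominant cells and 0 lower, with medians of -2.51 and -2.09. Cldn10, a claudin of paracellular ion transport, had medians of 136 and 95 TPM against 0 and 0 TPM and was higher by 4.85 and 5.09. Pon1, paraoxonase, was higher by 3.44 and 5.03, and Gabrp, a GABA receptor subunit, by 3.30 and 4.25. Cldn18, the alveolar claudin, was instead higher in Sftpc-dominant cells by 3.51 and 5.92, the single call among 15 tight junction genes. Of the members measured, 12 of 15 on the wild-type chip and 9 of 16 on the other were negative. Of 4 keratins, Krt19 (4.30 and 4.20) and Krt18 (2.07 and 2.59), filament proteins of simple epithelia, were higher on the Scgb1a1 side. Scnn1b, a subunit of the epithelial sodium channel, was higher there by 2.17 and 3.19, the single call among 15 transport genes. Over all genes 0.478% and 1.21% were called toward the Sftpc and the Scgb1a1 side, and these single calls are not read as results of their lists. Also higher on the Scgb1a1 side were Cxcl17, a mucosal chemokine (4.21 and 4.79), and Cd14, the endotoxin co-receptor (2.09 and 3.46). They were 2 of 12 NF-kB and chemokine genes, with 0 called in the other direction. The complement component C3 was higher there too (2.26 and 2.72), though its ratio of mean TPM had the other sign on the wild-type chip. C3 was the single call of 5 complement genes and is likewise not read as a result of its list. The ER genes Ssr4, Pdia3 and Tram1 were higher in Scgb1a1-dominant cells, 3 of 28 of their list, with 0 in the other direction.

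Of 36 lung lineage transcription factors, Etv5 was the single call, with list medians of -0.26 and -0.23; over all genes 0.478% and 1.21% were called toward the Sftpc and the Scgb1a1 side, so counts of 0 or 1 in the lists of this paragraph are near the background. Nkx2-1, the master factor of lung epithelium, was detected in 82.4% and 93.3% of Sftpc-dominant and in 79.6% and 58.7% of Scgb1a1-dominant cells and differed by 1.56 and 0.85. Foxa2, a forkhead factor of lung epithelium, differed by 1.5 and 1.03, and Sox2, a factor of the conducting airway, by -1.12 and -1.40; these 3 were picked after their values were seen. Neither the Notch list (0 of 7) nor the FGF, EGF and BMP list (0 of 12) held a call on both chips. Fgfr2, a receptor of type 2 cell growth factors, differed by 2.36 on the wild-type and 1.2 on the other chip. Tcf7l2, a transcription factor of the Wnt pathway, was the single call of 12 Wnt genes and was higher in Scgb1a1-dominant cells by 3.40 and 2.31. Among 12 cell cycle genes Gmnn, the replication licensing inhibitor geminin, was higher there by 2.25 and 2.90, detected in 18 of 49 and 28 of 46 against 0 of 17 and 2 of 15 cells. None of 13 p53 targets, 20 immediate early genes, 11 heat shock genes or 3 ciliated markers was called on both chips.

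Promoter entries were found for 33 of the 42 and 76 of the 106 genes. The NKX2 core was in 24.2% of the Sftpc-side and 15.8% of the Scgb1a1-side windows, against 13.2% of all 27025 windows of that length. The forkhead site was in 18.2% and 14.5% against 8.22%, and the C/EBP site in 18.2% and 19.7% against 10.8%. The grainyhead site was in 0 and 1.32% against 2.00%. The HNF1 site was in none of either set, but also in only 3 of all 27025 windows (0.0111%). It is too rare for its absence from 33 and 76 windows to be informative. The Lamp3 and Cyp2f2 windows printed above each hold 1 of these matches. These shares are descriptions, and no difference was tested.

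The bulk libraries of Scgb1a1-lineage cells played no part in forming the groups. A bulk library cannot tell fewer cells of a type from less RNA per cell. Of the 42 Sftpc-side genes, 40 had a value in all 6 libraries, and of the 106 on the other side, 103. Mean log2(FPKM + 1) over the 40 was 8.37, 7.24 and 7.37 in the wild-type replicates 1, 5 and 6 and 6.80, 7.04 and 6.78 in the p53flox/flox replicates 7, 8 and 10. Over the 103 it was 6.99, 8.16 and 8.16, and 7.85, 8.08 and 8.10. Wild-type replicate 1 thus stood apart in both sets and in opposite directions. It held the highest value of 37 of the 40 genes (92.5%), where 26.4% of all 11957 genes were highest in it, and the lowest of 97 of the 103 (94.2%), against 28.2% of all. The mean over all genes lay between 3.69 and 3.74 in the 6 libraries. Lamp3 was at 692, 230 and 225 FPKM and at 145, 175 and 141 FPKM, highest in replicate 1 and higher in each wild-type library than in each p53flox/flox library. Scgb3a2 was at 8587, 37396 and 30075 FPKM and at 17859, 23810 and 28302 FPKM, lowest in replicate 1 and overlapping between the genotypes. Aldh1a1 was at 926, 2047 and 1677 FPKM and at 1649, 1691 and 2223 FPKM, again lowest in replicate 1. Without that library the means over the 40 genes were 7.24 and 7.37 in wild type and 6.78 to 7.04 in p53flox/flox. Those over the 103 genes were 8.16 in both against 7.85 to 8.10. The library was set aside after its values were seen, and other gene sets were not ordered this way, so no genotype effect is read from these means. Wild-type replicate 6 was named without the prefix "second" that the others carry, and its meaning is not given in the sources. Bulk values of Lyz2, Sftpa1 and Cyp2f2 were marked in 1 library each and are not used here.

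**Figure D5:**
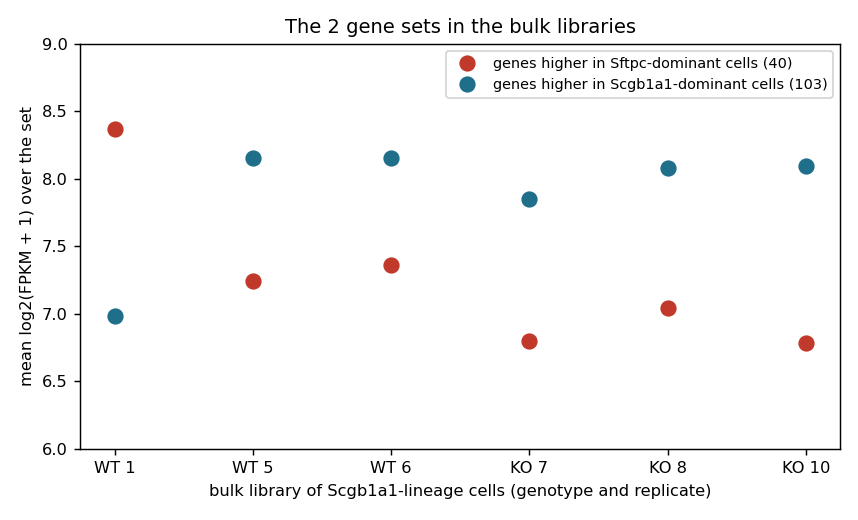
Mean log2(FPKM + 1) in each of the 6 bulk libraries (horizontal axis, genotype and replicate) over the genes higher in Sftpc-dominant cells (red, 40 genes) and in Scgb1a1-dominant cells (blue, 103 genes); the vertical axis starts at 6. Wild-type replicate 1 has the highest red point, 8.37, and the lowest blue point, 6.99.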

How the data were processed

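Single cells were captured on C1 chips and bulk libraries were made from sorted cells, per the labels' protocols. Values in the single-cell tables are TPM as deposited by the authors; per the submitters' processing notes, RSEM 1.2.20, Bowtie 1.1.1 and the GRCm38 build were used. RSEM divides reads that fit several genes by estimation. Bulk values are FPKM as deposited by the authors; per the submitters' processing notes, mm10 was the build and TopHat, Bowtie2 and Cufflinks the tools. How Cufflinks normalized the libraries is not given in the sources. Neither unit gives counts, so depth is unknown, and spike-in RNA, 92 rows of each single-cell table, is part of the TPM total.

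From these values, TPM plus a pseudocount of 1 was taken to log2, and group means were compared within each chip (Python 3.11.15, numpy 2.4.6, pandas 2.3.3). A gene was measured where at least 10% of the cells of either group had 1 TPM. A difference on this scale understates the change of genes of low level. The procedure was tested on simulated data, in which cells were shuffled into groups of near-equal size. Widely detected genes were raised or lowered there by a large known factor. That setting does not cover the smaller differences, rarer genes and unequal groups of this report. Samples were grouped by genotype and title labels; 2 labelled p53-/- cell samples had no matched column and were not analysed here. The 11957 bulk genes entered with at least 1 FPKM in 3 libraries and a value in all 6. The 2 gene sets needed only a value in all 6, and 102 of the 103 genes passed the FPKM minimum. Values were taken as FPKM plus 1 on the log2 scale, and the 6 bulk libraries were compared one by one with no test.

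The members and the 30 gene lists were chosen with earlier results of these data known. Genes named were the 15 with the largest difference on each side (ranked by the smaller of the 2 chips' values), up to 6 members of each list, the 4 markers and Trp53; others are said to be picked later. Alternatives covered the pseudocount, scaling, centring, medians, mean TPM, cell filters, dominance, detection and size. Intervals are exact binomial (Clopper-Pearson) and cover counting error only; a count of 0 is given the limit of 3 counts. Promoter sequences and motif shares come from RefSeq on GRCm38.p6, matched by symbol.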

Additional observations from a re-analysis of the deposited data

Results flagged for a closer look

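The 2 transcripts that define the groups were found in the well labelled as the off-chip negative control of the chip labelled p53-/-. Scgb1a1 was at 3.72 TPM and Sftpc at 3.22 TPM, the only genes of that well at 1 TPM or more, and spike-in RNA made up 99.998% of its total. They are given here because a signal appeared in a well outside the comparisons. The off-chip positive control of the same chip had 7953 detected genes, with 491987 TPM of Scgb1a1, 16709 TPM of Sftpc, 30.2 TPM of Lamp3 and 2949 TPM of Cyp2f2. How far RNA of this kind adds to the low Sftpc and Scgb1a1 values of the kept cells was not tested.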

How the results depend on the processing

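The counts of 42 genes higher in Sftpc-dominant and 106 higher in Scgb1a1-dominant cells on both chips moved most with the pseudocount and the size. They were 76 and 263 with a pseudocount of 0.1, 19 and 34 with 10, 115 and 391 at a size of 1, and 26 and 37 at a size of 3. With a difference of medians they were 61 and 202. Under the other 11 alternatives they stayed within 1.5 times, from 40 to 61 and from 81 to 146. Keeping cells with at most 30% spike-in gave 52 and 89. That limit left 10 of 17 Sftpc-dominant and 43 of 49 Scgb1a1-dominant cells on the wild-type chip, and all 15 and 46 on the other. Leaving out the 4 cells rich in leukocyte or ciliated markers gave 45 and 103. Both of these alternatives were chosen after seeing the data. The ratio of mean TPM gave 41 and 102, of which only 23 and 43 were among the genes called in the report; it turned C3 to 0.12 on the wild-type chip and Apoe to -0.34 on the chip labelled p53-/-. The single cell rich in leukocyte markers held 13470 TPM of Apoe, against at most 1044 TPM in the other Scgb1a1-dominant cells of that chip; the cause of the change of C3 was not tested. Removing spike-in, Sftpc and Scgb1a1 from the total shifted the median of all genes to -0.10 and -0.12, and the limit of 30% spike-in shifted it to 0.15 on the wild-type chip. Of 1872 differences of named genes over 12 alternatives, 239 moved by more than the smaller SD over cells, 61 of 156 with medians, 50 with the ratio of mean TPM, 33 and 31 with pseudocounts of 10 and 0.1 and 25 with 10-fold dominance; of those called, 2 changed sign, C3 and Apoe. No paired analysis was possible because the replicate numbers of cells only name them, the bulk groups share no number, and no result comes from a test. Each genotype is 1 chip of unknown depth, so no value carries an error between animals.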

Other observations

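Genes outside every list also differed on both chips: 14 of the 42 on the Sftpc side and 56 of the 106 on the Scgb1a1 side. On the Sftpc side Rnase4, a secreted ribonuclease, ran from 0.2 through 677 to 4205 TPM against 0, 0 and 1623 TPM on the wild-type chip and from 54.8 through 779 to 2084 TPM against 0, 38 and 2223 TPM on the other, and differed by 5.61 and 4.63. Acot7, an acyl-CoA thioesterase, differed by 3.40 and 3.90, Cpm, carboxypeptidase M, by 3.06 and 3.07, and Nrp1, a semaphorin and VEGF co-receptor, by 2.85 and 2.90. Apoe, apolipoprotein E, differed by 4.27 and 2.28 and was detected in 10 of 17 and 9 of 15 Sftpc-dominant against 4 of 49 and 12 of 46 Scgb1a1-dominant cells, but its ratio of mean TPM had the other sign on the chip labelled p53-/-.

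On the Scgb1a1 side Cp, the copper protein ceruloplasmin, had medians of 97.4 and 354 TPM against 0 and 0 TPM and was higher by 4.81 and 6.66. Pdcd4, an inhibitor of translation, had medians of 68.1 and 65.4 TPM against 0 and 0 TPM and was higher by 4.85 and 4.63. Its bulk level was low in all 6 libraries, from 8.41 to 15 FPKM. Pgrmc1, a heme-binding membrane protein, was higher by 5.36 and 3.88, Anxa1, annexin A1, by 4.23 and 4.07, and Ly6a, the surface antigen Sca-1, by 3.41 and 3.61. Among nuclear factors of no list, Esr1, the estrogen receptor, was higher in Scgb1a1-dominant cells by 3.26 and 2.56 and Runx1 by 2.68 and 2.41. Esr1 was detected in 28 of 49 and 27 of 46 of these cells against 1 of 17 and 3 of 15, and Runx1 in 41 of 49 and 42 of 46 against 7 of 17 and 7 of 15. Acot7, Cpm, Nrp1, Apoe, Pgrmc1, Anxa1, Ly6a, Esr1 and Runx1 were picked after their values were seen.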
